A study of Mus musculus with 282 samples.

Results

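C4b, C3, Serpina3n, Serping1 and Cd59a are 5 genes of the complement system and the acute phase response, and their levels were followed in the hypothalamus of 99 mouse strains. They were chosen by name, as the rows of the deposited expression table whose gene name in the deposited assembly is one of the 5, and each was the only name at its locus. All 5 were measured, out of 14079 genes in the table, and they had 13 of its 51024 transcripts. Gfap, the intermediate filament of astrocytes, was taken as the gene to compare them with.

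Whole hypothalamus was sequenced from 282 male mice of the Hybrid Mouse Diversity Panel, with 1 unstranded mRNA library per mouse. Every mouse was on a high fat, high sugar diet, so strain was the only group that differed by design, and nothing here compares diets or sexes. The strains fell into 5 panels by their names. There were 25 classical inbred strains (71 mice) and 4 panels of recombinant inbred strains, which are inbred from a cross and carry a fixed mixture of both parents' genomes. These were BXD (43 strains, 126 mice, from C57BL/6J and DBA/2J), AXB/BXA (18 strains, 47 mice, from A/J and C57BL/6J), CXB (7 strains, 21 mice, from BALB/cJ and C57BL/6J) and BXH (6 strains, 16 mice, from C57BL/6J and C3H/HeJ). The design gives the mice of a strain as biological replicates, with 3 mice in 85 strains, 2 in 12 strains and 1 in 2 strains. The labels of mouse OB-627 name more than 1 strain, so that mouse was kept only in values over all mice.

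Complement is a cascade of blood and tissue proteins that tags cells and debris for removal. C4, encoded by C4b, is cleaved early in the classical and lectin pathways, and C3 is the central component on which the pathways converge, whose fragments attach to targets and are read by receptors on phagocytes such as microglia. Serping1 encodes C1 inhibitor, which blocks the first proteases of the classical pathway, and Cd59a encodes a membrane-anchored inhibitor of the terminal pore. Serpina3n encodes a secreted serine protease inhibitor of the acute phase response, and in brain it is widely used, like Gfap, as a marker of reactive astrocytes.

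Levels are given in FPKM, fragments scaled to transcript length and library size, which can be compared between genes because they are per length. The 5 genes differed widely in level. Serpina3n was the highest, at 27.9 ± 11.3 FPKM (SD, n = 282), with a lowest mouse of 8.11, a median of 25.1 and a highest mouse of 79.0. C4b had a mean of 12.4 ± 7.38 FPKM, and its mice ran from 4.55 through a median of 10.9 to 84.9. Cd59a had a mean of 9.95 ± 3.81 FPKM and a range of 2.80 to 28.5 around a median of 9.70. All 5 genes were detected in every mouse, none with a level of 0. Serping1, at 4.34 ± 1.71 FPKM, ran from 1.76 to 19.9 with a median of 3.95. C3 was the lowest, at 1.83 ± 1.60 FPKM with a median of 1.42 and a range of 0.379 to 14.5, and was above 1 FPKM in 233 mice. Gfap had a mean of 72.5 ± 22.8 FPKM.

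The hypothalamic peptide genes Pomc, Hcrt, Pmch and Avp had a summed level of 500.1 to 7891 FPKM over mice, of which Pomc is also a pituitary gene. Markers of neighbouring tissue varied more, with sums of 0.589 to 16462 FPKM (median 25.8) for 6 anterior pituitary genes and 7.25 to 2101 FPKM (median 24.1) for 5 choroid plexus genes. FPKM carry no read counts, so the depth behind a value is unknown and precision is given by the spread among mice. Mouse OB-547 (BXD-12/TyJ) stood apart, with a sum of all gene FPKM of 792801 against a median of 337467. Some values of the 5 genes are given with and without it. Where no second value is given, the value includes OB-547 and may depend on it. In whole tissue, fewer cells of a type and less RNA per cell cannot be told apart.

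All coordinates are mm10. C4b lies on the minus strand at chr17:34728182-34743900, C3 on the minus strand at chr17:57203970-57228136, and Serpina3n on the plus strand at chr12:104406645-104414502. Serping1 lies on the minus strand at chr2:84765387-84775404, and Cd59a on the plus strand of the same chromosome at chr2:104095801-104115354. C4b has a near-identical neighbour, C4a, at a mean of 2.01 FPKM, and Cd59a has Cd59b, at 2.97 FPKM. Reads shared between such copies, and among the clustered relatives of Serpina3n, could have been split between them, so the level of each gene is uncertain to that extent. Over strain means of log2(FPKM + 1), r was 0.405 between C4b and C4a and -0.0748 between Cd59a and Cd59b (n = 99 strains), so the strain pattern of Cd59a was not that of its copy.

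Promoters of C3, Serpina3n, Cd59a and Gfap were found in the RefSeq table for GRCm38.p6, the assembly of mm10, as 250 bases before and 50 bases after the start site. They were searched on both strands for sites of 3 acute phase transcription factors: STAT (TTCNNNGAA), NF-kB and C/EBP (TTGCNNAA). C3 and Gfap each held a match and are shown because their levels moved together between strains, and Serpina3n is shown as the acute phase gene. Capitals mark the match, and the Serpina3n window held none of the 3 motifs. The windows are chr17:57228087-57228386 (minus strand) for C3, chr12:104406458-104406757 (plus strand) for Serpina3n and chr11:102897151-102897450 (minus strand) for Gfap.
C3: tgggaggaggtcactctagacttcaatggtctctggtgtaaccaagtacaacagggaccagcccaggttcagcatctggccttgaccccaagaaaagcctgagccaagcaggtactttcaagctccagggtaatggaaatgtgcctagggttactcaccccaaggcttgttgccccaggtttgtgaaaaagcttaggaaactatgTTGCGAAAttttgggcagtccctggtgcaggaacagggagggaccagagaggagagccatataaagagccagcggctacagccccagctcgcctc
Serpina3n: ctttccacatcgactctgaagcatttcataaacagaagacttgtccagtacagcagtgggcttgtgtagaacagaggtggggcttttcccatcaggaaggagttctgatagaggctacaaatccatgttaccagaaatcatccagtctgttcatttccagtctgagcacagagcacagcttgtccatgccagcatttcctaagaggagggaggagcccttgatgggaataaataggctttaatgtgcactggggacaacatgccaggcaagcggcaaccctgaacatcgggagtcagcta
Gfap: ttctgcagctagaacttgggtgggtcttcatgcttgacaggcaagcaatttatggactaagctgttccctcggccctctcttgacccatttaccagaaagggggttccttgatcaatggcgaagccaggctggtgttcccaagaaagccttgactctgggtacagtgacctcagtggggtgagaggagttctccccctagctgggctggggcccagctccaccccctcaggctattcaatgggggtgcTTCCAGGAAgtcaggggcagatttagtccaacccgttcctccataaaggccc
The C3 match is a C/EBP site that starts 45 bases before the start site, at -45, and the Gfap match is a STAT site that starts at -2. The Cd59a window held no match to any of the 3 motifs. Over all 32851 promoters of the table, 10.8% held the C/EBP letters, 8.30% the STAT letters and 1.199% an NF-kB match. The matches in C3 and Gfap overlapped no other motif searched. A match describes the letters only.

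The first question was whether these genes differ between strains. They did, and the part of the variation among mice that lay between strains was largest for Cd59a and Serpina3n. Values of log2(FPKM + 1) were compared among the 99 strains by limma's moderated F test, fitted once to all genes, with p values adjusted over all genes by the Benjamini-Hochberg method and called at an adjusted p under 0.05. All 5 genes passed, where 75.4% of all genes did, so the call alone does not set them apart. The strain share, the part of the variance that lies between strains (intraclass correlation), had a median of 0.222 over all genes. It was 0.874 for Cd59a (limma adjusted p = 1.04e-62), higher than in 98.5% of genes, and 0.865 for Serpina3n (5.21e-60), higher than in 98.3%. For C4b it was 0.681 (3.66e-29) and for C3 0.533 (6.70e-17). Serping1 had the lowest share of the 5, at 0.292 (5.85e-06), and its call was lost when the second mouse of each strain was left out (limma adjusted p = 0.0663).

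The spread among mice of 1 strain, as an SD of log2(FPKM + 1), was 0.18 for both Serpina3n and Cd59a, and 0.32, 0.34 and 0.32 for C4b, C3 and Serping1. Ordered by strain mean, neighbouring strains nearly always overlapped. Of 98 pairs of neighbours, the mice overlapped in 97 for C4b, 96 each for C3, Serpina3n and Cd59a, and all 98 for Serping1. The order is thus read at its ends and not from place to place.

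**Figure D1:**
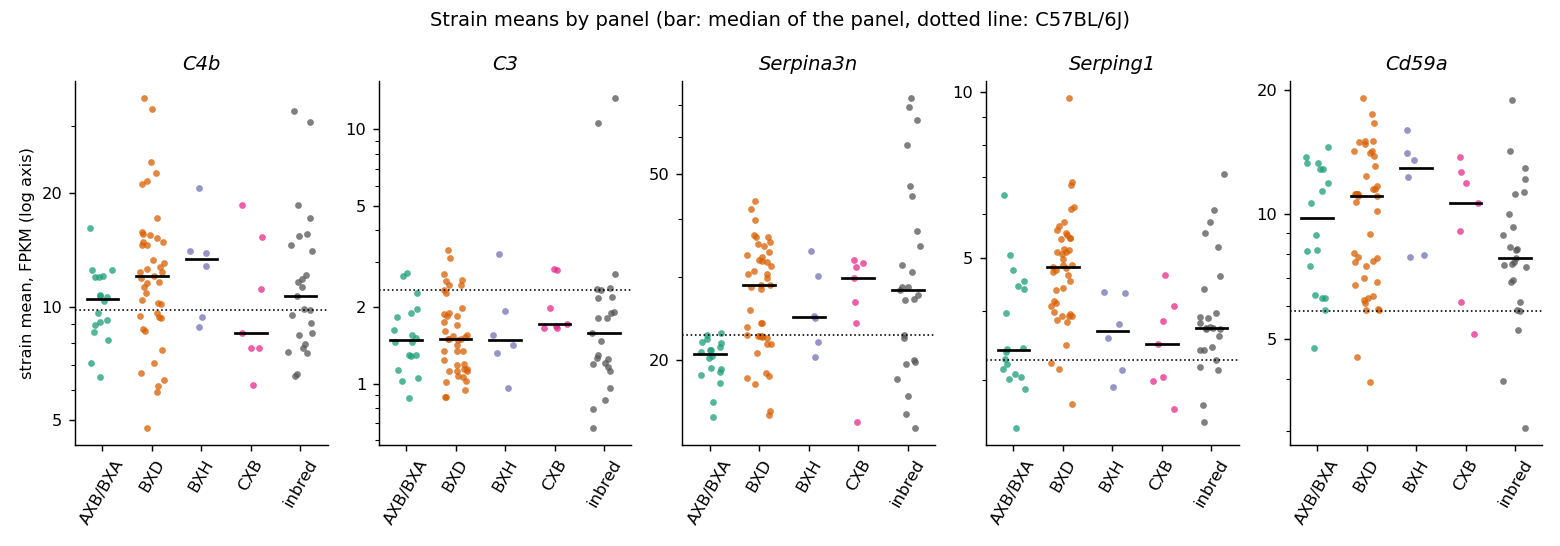
Strain means of the 5 genes in FPKM (vertical log axis) by panel, with 1 point per strain, a bar at the median of each panel and a dotted line at C57BL/6J. SJL/J and SWR/J stand far above all other strains for C3, at 13.3 and 10.6 FPKM, and for Serpina3n the AXB/BXA strains stay between 15.1 and 22.8 FPKM while the inbred strains reach 72.7.

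C4b, the early component, was high in a few strains. In SEA/GnJ the 3 mice had 31.4, 31.8 and 35.3 FPKM, and in SJL/J the 2 mice had 27.5 and 34.0 FPKM. In C57BL/6J they had 8.83, 9.29 and 11.2 FPKM. The lowest strain, BXD64, had 4.55, 4.75 and 5.01 FPKM, which did not overlap the next strain, BXD-19/TyJ, at 5.12 to 7.01 FPKM. All mice of SEA/GnJ and SJL/J were thus above all mice of C57BL/6J and BXD64.

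The highest strain means of C4b rested on single mice. BXD-12/TyJ had the highest mean, 35.7 FPKM, from mice at 10.4, 11.8 and 84.9 FPKM. The mouse at 84.9 was OB-547, and the other mice of that strain were close to the median strain mean of 11.3 FPKM. BXD74 came next at 33.4 FPKM, from mice at 14.9, 23.9 and 61.2 FPKM. Its highest mouse, OB-1121, was also the highest of its strain for C3, at 8.08 against 0.847 and 1.16 FPKM, and for Serping1, at 19.9 against 3.38 and 6.00 FPKM, but not for Serpina3n, at 37.7 against 30.9 and 41.4 FPKM. Its microglia markers summed to 288 FPKM, against 158 and 223.8 FPKM in the other mice of the strain and a median of 125 over all mice, and their part in the result was not tested. The strain share of C4b was 0.752 without OB-547 and 0.693 without OB-1121.

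C3, the central component, showed the widest range between strains, and it rested on a pair of inbred strains. SJL/J had 12.1 and 14.5 FPKM in its 2 mice, and SWR/J had 10.2, 10.7 and 10.96 FPKM. These strains did not overlap each other or any other strain. The next strain mean was 3.36 FPKM, in BXD74, and the median strain mean was 1.53 FPKM. The lowest were A/J at 0.668, 0.797 and 1.11 FPKM, CE/J at 0.537, 0.578 and 1.26 FPKM, and NZW/LacJ at 0.379, 0.695 and 0.932 FPKM, which overlapped one another. The highest strain mean was 19.9 times the lowest. Without SJL/J and SWR/J the strain share of C3 fell from 0.533 to 0.258, and its call held (limma adjusted p = 5.86e-05). C4b did not follow C3 in SWR/J, where its 3 mice had 6.61, 7.59 and 8.60 FPKM.

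**Figure D2:**
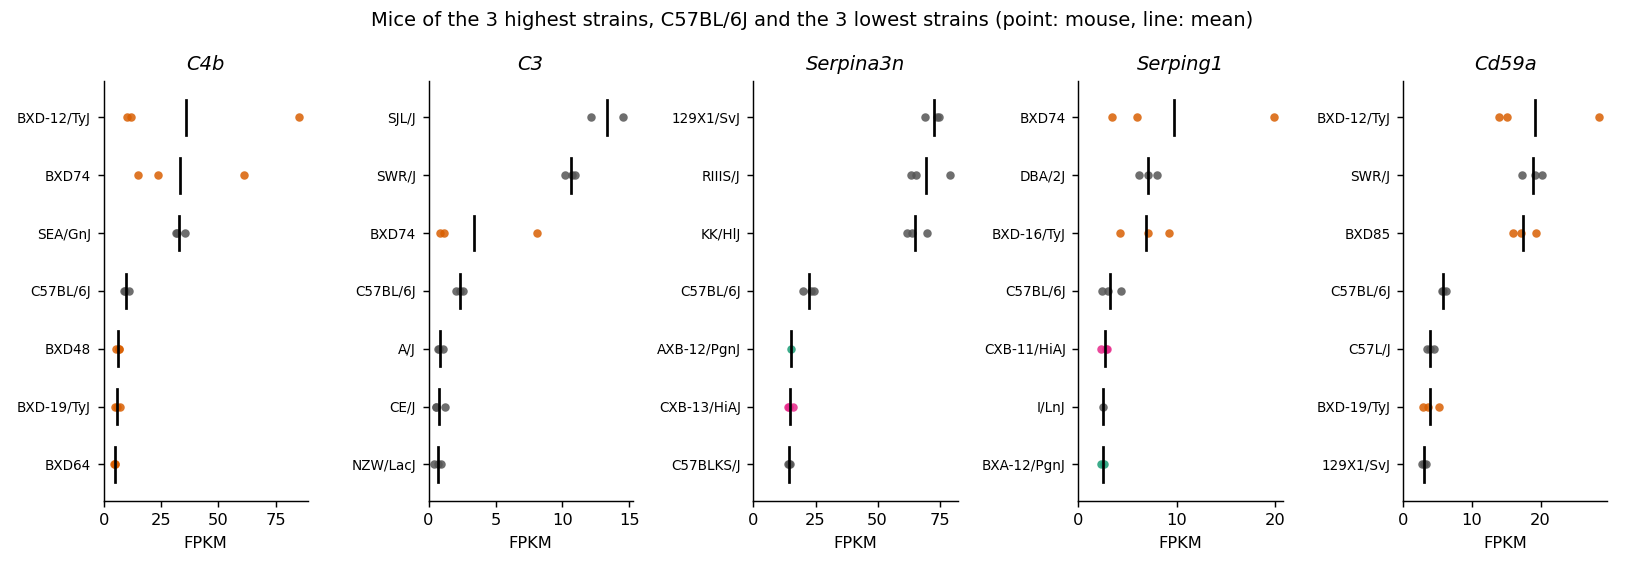
Levels of each gene in FPKM (horizontal axis) in the mice of its 3 highest strains, C57BL/6J and its 3 lowest strains, with 1 point per mouse, coloured by panel, and a line at the strain mean. The highest means of C4b, Serping1 and Cd59a are each pulled up by 1 mouse, at 84.9, 19.9 and 28.5 FPKM, whereas for C3 every mouse of the 2 highest strains lies above 10 FPKM.

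Serping1, the inhibitor of the first proteases, varied least between strains. After BXD74, whose mean of 9.77 FPKM included OB-1121, DBA/2J was highest with mice at 6.18, 7.07 and 8.02 FPKM, and BXD-16/TyJ followed with mice at 4.25, 7.14 and 9.24 FPKM. The lowest were CXB-11/HiAJ, at 2.301, 2.77 and 2.93 FPKM, I/LnJ with a single mouse at 2.52 FPKM, and BXA-12/PgnJ, at 2.33 and 2.59 FPKM. The mice of DBA/2J were above all of these.

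Cd59a, the inhibitor of the terminal pore, had tight strains spread over a wide range. SWR/J, which was also high in C3, had 17.3, 19.2 and 20.2 FPKM, and BXD85 had 15.9, 17.1 and 19.3 FPKM. BXD-12/TyJ had the highest mean, 19.2 FPKM, from 13.98, 15.0 and 28.5 FPKM, of which the last was OB-547. At the other end, 129X1/SvJ had 2.80, 3.08 and 3.25 FPKM, C57L/J had 3.52, 3.84 and 4.49 FPKM, and BXD-19/TyJ had 2.94, 3.56 and 5.26 FPKM. The highest and lowest strains differed without any overlap, and C57BL/6J, at 5.58, 5.77 and 6.17 FPKM, was 8th from the lowest of the 99 strain means.

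Serpina3n, the acute phase serpin, was highest in classical inbred strains. The mice of 129X1/SvJ had 69.2, 74.1 and 74.8 FPKM, those of RIIIS/J 63.6, 65.6 and 79.0 FPKM, and those of KK/HlJ 62.0, 63.7 and 69.9 FPKM. These strains overlapped in that order, and all their mice were above SEA/GnJ, the fourth, at 56.2, 57.01 and 59.1 FPKM. The lowest strains were C57BLKS/J, at 13.9, 14.2 and 14.7 FPKM, CXB-13/HiAJ, at 13.8, 14.5 and 15.9 FPKM, and AXB-12/PgnJ with a single mouse at 15.1 FPKM. The strain with the lowest Cd59a, 129X1/SvJ, thus had the highest Serpina3n, but over all strains the pair had an r of -0.0938. OB-547 had the lowest level of Serpina3n of all mice, 8.11 FPKM, against 16.3 and 22.1 FPKM in the other mice of its strain.

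Strains were then tested within each panel of the same fit. In BXD and in the inbred strains all 5 genes passed, where 64.5% and 47.8% of all genes did. In AXB/BXA, Cd59a (limma adjusted p = 6.16e-25) and C4b (0.0173) passed, 2 of 5 against 22.5% of all genes. In BXH, C4b, Serpina3n and Cd59a passed against 18.6% of all genes, with limma adjusted p of 0.026, 0.00128 and 3.51e-09. The same 3 genes passed in CXB, against 18.0% of all genes, with 2.51e-06, 3.23e-11 and 1.77e-16. Cd59a thus passed in every panel, and C3 and Serping1 passed in BXD and the inbred strains alone. Serpina3n did not pass in AXB/BXA (limma adjusted p = 0.319), whose 18 strain means lay between 15.1 and 22.8 FPKM, close to the span between the parents. The calls of C4b in AXB/BXA and BXH were lost whenever 1 mouse of each strain was left out (limma adjusted p of 0.413, 0.0998 and 0.136 in AXB/BXA and of 0.0732, 0.362 and 0.102 in BXH). Without OB-547 alone, a BXD mouse that enters the shared spread, both held (limma adjusted p = 0.00029 in AXB/BXA and 0.00221 in BXH). The call of Serpina3n in BXH was lost without the second mice (0.189). The calls of Serping1 were lost without the first and without the second mice, with limma adjusted p of 0.0666 and 0.154 in BXD and of 0.116 and 0.603 in the inbred strains, and that of C3 in BXD was lost without the third mice (0.0821).

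The strains of a cross often lay outside the range of their parents. For Cd59a, all 6 BXH strains had means above both parents, from 7.88 to 16.0 FPKM against 5.84 FPKM in C57BL/6J and 7.56 FPKM in C3H/HeJ. In AXB/BXA, 12 of 18 strains were above both parents for Cd59a, up to 14.5 FPKM against 7.60 FPKM in A/J. In BXD, 16 of 43 were above both parents and 2 below. For Serpina3n in BXD, 15 strains lay below both parents, 13 between and 15 above, from 15.2 to 43.7 FPKM around parents at 22.5 and 31.8 FPKM. For C3 in BXD, 34 of 43 strains were below both parents, whose means were 2.32 FPKM in C57BL/6J and 2.16 FPKM in DBA/2J. For Serping1 in BXD, 39 of 43 lay between the parents. These counts compare means of a few mice and carry no test.

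The 4 other parents were each compared with C57BL/6J in the same fit. These contrasts share the 3 C57BL/6J mice, so they are not independent of one another, and differences are on the log2(FPKM + 1) scale, which understates the change of low genes. Overlap between the 3 mice of each strain is only described, because the share of all genes without overlap was not computed. In DBA/2J, 3 of 5 genes passed, all higher, where 6.88% of all genes passed, 3.30% higher and 3.58% lower. Cd59a had 10.9, 11.5 and 11.6 FPKM against 5.58, 5.77 and 6.17 FPKM in C57BL/6J, a log2 difference of 0.85 ± 0.15 (SE, limma adjusted p = 2.48e-06). Serping1 had 6.18, 7.07 and 8.02 FPKM against 2.43, 3.06 and 4.32 FPKM, a log2 difference of 0.94 ± 0.26 (limma adjusted p = 0.0102). Neither gene overlapped between the strains. Serpina3n had 28.2, 30.1 and 37.1 FPKM against 20.02, 23.3 and 24.3 FPKM, a log2 difference of 0.47 ± 0.15 (limma adjusted p = 0.0277), also without overlap. The mice of DBA/2J were above those of C57BL/6J for C4b as well, at 14.5, 14.5 and 22.4 against 8.83, 9.29 and 11.2 FPKM, but the log2 difference of 0.73 ± 0.26 did not pass (limma adjusted p = 0.0644, 0.0311 with quantile normalization, 0.0464 without OB-1121 and 0.0151 without OB-547, both BXD mice that enter the shared spread). C3 overlapped, with a log2 difference of -0.09 ± 0.28 (limma adjusted p = 0.907). The call of Serpina3n was lost without OB-606 or OB-607 of C57BL/6J (limma adjusted p = 0.188 and 0.0529), without OB-600 of DBA/2J (0.243), and with only these strains in the fit (0.0916). That of Serping1 was lost without OB-606 (0.108) or OB-601 (0.0702).

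In A/J, 2 of 5 genes passed, both lower, where 8.01% of all genes passed, 3.07% higher and 4.94% lower. C3 had 0.668, 0.797 and 1.11 FPKM against 2.05, 2.37 and 2.54 FPKM in C57BL/6J, a log2 difference of -0.84 ± 0.28 (limma adjusted p = 0.0403). Serpina3n had 15.0, 15.0 and 15.8 FPKM against 20.02, 23.3 and 24.3 FPKM, a log2 difference of -0.53 ± 0.15 (limma adjusted p = 0.00981). Neither overlapped. The call of C3 was lost without any 1 of the 6 mice, with limma adjusted p of 0.0524 to 0.147, and that of Serpina3n without OB-605 of C57BL/6J (0.074). C4b, Serping1 and Cd59a differed by -0.03 ± 0.26, -0.18 ± 0.26 and 0.33 ± 0.15 on the log2 scale and did not pass.

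In BALB/cJ, Cd59a passed, where 6.79% of all genes did (2.86% higher and 3.93% lower), with 10.5, 10.8 and 12.2 FPKM against 5.58, 5.77 and 6.17 FPKM, a log2 difference of 0.83 ± 0.15 (limma adjusted p = 5.76e-06) without overlap. This call held in each alternative run, as did that of Cd59a in DBA/2J. Serpina3n, at 28.6, 30.5 and 33.1 FPKM in BALB/cJ, was above all C57BL/6J mice but missed the threshold (0.43 ± 0.15, limma adjusted p = 0.0534, and 0.0278 without OB-547). C3 was lower in BALB/cJ by a log2 difference of -0.57 ± 0.28, which passed only with these strains alone in the fit (limma adjusted p = 0.262, and 0.0277 in that fit). In C3H/HeJ none of the 5 passed the limma test, where 7.59% of all genes did (3.89% higher and 3.71% lower), and 2 of 5 had an unadjusted p under 0.05. These were C3, with a log2 difference of -0.61 ± 0.28 (limma adjusted p = 0.199, and 0.0401 with only these strains in the fit), and Cd59a, with 0.32 ± 0.15 (limma adjusted p = 0.2).

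**Figure D3:**
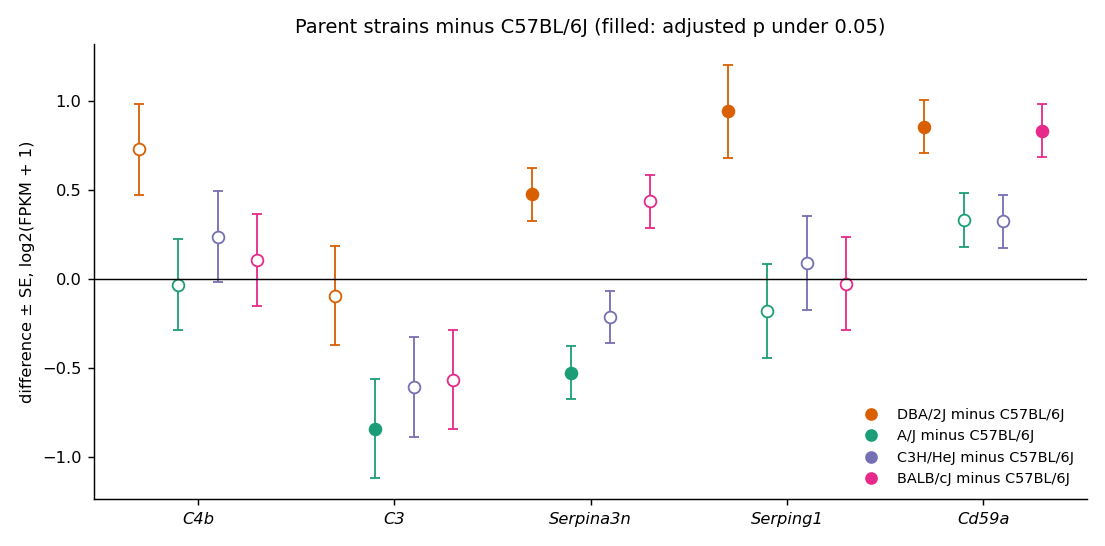
Differences of the 4 other parents from C57BL/6J on the log2(FPKM + 1) scale (vertical axis) for each gene, as estimates with bars of 1 SE from 3 mice per strain and with filled points where the limma adjusted p was under 0.05. Cd59a is above 0 in all 4 parents, but was called only in DBA/2J and BALB/cJ. C3 is below 0 in all 4, but was called only in A/J, and in DBA/2J it is at -0.09 ± 0.28. The 4 contrasts share the same C57BL/6J mice.

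The table also gave transcripts, with 6 of C4b, 3 of Serpina3n, 2 of Cd59a and 1 each of C3 and Serping1, and 10 of the 13 differed between strains where 46.8% of all transcripts did. The annotated protein-coding transcript of 41 exons took 55.5 ± 10.8% (SD, n = 282) of the FPKM of C4b and had a strain share of 0.686 (limma adjusted p = 8.06e-29). That of Serpina3n, with 5 exons, took 74.6 ± 6.52% of its gene and had a share of 0.819, and that of Cd59a, with 4 exons, took 86.2 ± 7.34% and had a share of 0.851. The only transcript of C3 that was kept, with 41 exons, had a strain share of 0.737, higher than the 0.533 of its locus, and averaged 10.8 FPKM in SJL/J and 9.46 FPKM in SWR/J. It took 54.2 ± 21.9% of the FPKM of C3, and the rest of the locus value lay outside this transcript. The transcript itself took 42.8%, 48.2% and 36.6% of the gene in the C57BL/6J mice and 81.1%, 100% and 86.7% in the SWR/J mice. The transcript of Serping1 took 68.3 ± 18.1% of its gene and had a strain share of 0.289. The 3 transcripts that did not pass had mean levels of 0.554, 0.697 and 0.448 FPKM, and 0 FPKM in 121, 114 and 152 mice.

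Transcript levels set mouse OB-547 apart from the other mouse with very high C4b. In OB-547, a short C4b transcript of 2 exons at chr17:34728380-34729265, annotated as a retained intron, had 72.7 FPKM and 85.5% of the gene, while the highest level in any other mouse was 8.998 FPKM. Its 41-exon transcript had 0.882 FPKM, the lowest of all mice. In OB-1121 of BXD74 the 41-exon transcript had 37.8 FPKM and 61.7% of the gene, and the short one 5.69 FPKM. Most of the 84.9 FPKM in OB-547 was thus assigned to the short transcript.

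The next question was whether these genes move with Gfap. C4b did, both between and within strains, with the largest t of all genes in each fit. The slope of each gene on Gfap, in log2 of the gene per log2 of Gfap, was fitted for all other genes with limma, once over the 99 strain means and once over 281 mice with strain as a factor, which leaves only differences among mice of 1 strain. Over strain means, positive slopes were called for 0.838% of all genes and negative ones for 0.384%, and 2 of the 5 genes passed, both positive. C4b had a slope of 0.69 ± 0.11 (SE, limma adjusted p = 5.84e-05), with rank 1 by t among 14078 genes. C3 had a slope of 0.42 ± 0.10 (limma adjusted p = 0.0259). Serpina3n had a slope of similar size, 0.38 ± 0.11, and missed the threshold (limma adjusted p = 0.0655), but passed without OB-547 (0.39 ± 0.11, 0.0434). Serping1 and Cd59a had slopes of 0.11 ± 0.07 and 0.19 ± 0.13 (limma adjusted p = 0.431 for each). Strains of a cross are related, so these p values treat strain means as more independent than they are.

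Within strains, 4 of the 5 genes passed, all positive, where positive slopes were called for 14.2% of all genes and negative ones for 13.2%. C4b again had the largest t of 14078 genes, with a slope of 0.74 ± 0.07 (limma adjusted p = 8.82e-15). Serping1 had 0.54 ± 0.09 (1.41e-06), C3 had 0.52 ± 0.09 (3.16e-05) and Cd59a had 0.17 ± 0.05 (0.00887), and Serpina3n did not pass (0.07 ± 0.05, 0.312, and 0.13 ± 0.05, 0.0907 without OB-547). Without mouse OB-547, 544 genes, or 3.86%, had a positive slope called, in place of 2003. C4b, Serping1 and C3 kept their calls without it, at 0.63 ± 0.06 (limma adjusted p = 5.21e-15), 0.52 ± 0.09 (8.91e-06) and 0.48 ± 0.09 (0.000212), and C4b kept the largest t. Cd59a lost its call (0.14 ± 0.05, 0.0708). Without OB-1121 the slopes of C4b, Serping1 and C3 were 0.70 ± 0.07, 0.50 ± 0.08 and 0.46 ± 0.09, all called.

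**Figure D4:**
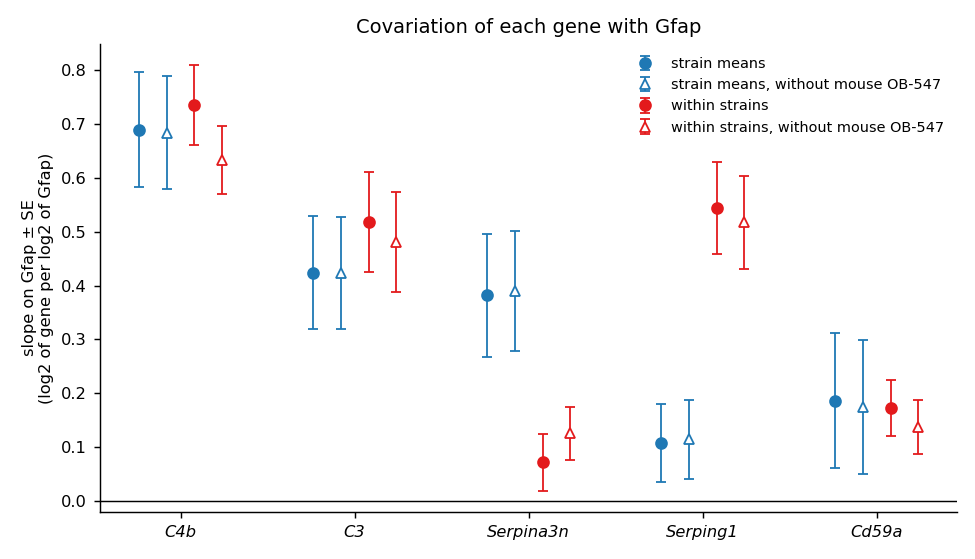
Slopes of the 5 genes on Gfap in log2 of the gene per log2 of Gfap (vertical axis), with bars of 1 SE, over 99 strain means (blue) and within strains (red), with all mice (filled circles) and without mouse OB-547 (open triangles). C4b and C3 have alike slopes in both, while Serping1 is at 0.11 over strain means and 0.54 within strains.

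Slopes within strains and over strain means were set side by side. For C4b the slope within strains minus that over strain means was 0.05 ± 0.13 (-0.05 ± 0.12 without OB-547), and for C3 it was 0.09 ± 0.14, each smaller than its error. For Serping1 the slope within strains was larger by 0.44 ± 0.11, and without OB-547 by 0.40 ± 0.11. With panel as a factor, its slope over strain means was 0.20 ± 0.07 in place of 0.11 and was not called (limma adjusted p = 0.0976). For Serpina3n the difference had the opposite sign, at -0.31 ± 0.13, or -0.26 ± 0.12 without OB-547. These SEs join those of both fits, and no p was computed for the differences. Slopes fitted for each panel did not differ between panels for any of the 5 genes in the limma F test, with 0 of 5 past the adjusted threshold and 0 of 5 with an unadjusted p under 0.05, over strain means, within strains, and within strains without OB-547, where the share of all genes called was 0.0639%, 0% and 0.0284%. For C4b over strain means they were 0.39 ± 0.31 in AXB/BXA, 0.85 ± 0.16 in BXD, 0.75 ± 0.41 in BXH, 1.17 ± 0.69 in CXB and 0.87 ± 0.26 in the inbred strains (unadjusted p of the difference = 0.71). With so few strains in BXH and CXB, a difference there was hard to detect.

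Correlations over strain means of log2(FPKM + 1) also put C4b first, then C3 and Serpina3n. They use the same strain means as the slopes, so they are not separate support. Their p values too treat related strains as more independent than they are. All 15 pairs among the 5 genes and Gfap were computed, with permutation p values of 100000 resamples, for which 1e-05 is the smallest that can be given. C4b and Gfap had a Pearson r of 0.543 (permutation p = 1e-05, adjusted over the pairs 0.00015) and a Spearman rho of 0.581 (1e-05, 7.5e-05). For C3 the r was 0.375 (0.00014, 0.00105) and the rho 0.399 (1e-05, 7.5e-05), and for Serpina3n they were 0.318 (0.0013, 0.00487) and 0.320 (0.00129, 0.00484). For Serping1 these were 0.148 and 0.158 (adjusted permutation p = 0.196 and 0.151), and for Cd59a 0.148 and 0.110 (0.196 and 0.32). Leaving out the 2 strains farthest from the median of each gene gave an r of 0.528 for C4b without SEA/GnJ and SJL/J, 0.387 for C3 without SJL/J and SWR/J, and 0.332 for Serpina3n without 129X1/SvJ and RIIIS/J. The correlations thus did not rest on the strains extreme in each of these genes. Strains extreme in Gfap, such as BXH-19/TyJ with the highest mean of 148 FPKM, stayed in, and leaving them out over all strains was not tried.

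Within panels, the correlation of C4b with Gfap was positive in each, with an r of 0.645 in BXD (n = 43, rho 0.741, permutation p = 2e-05, adjusted 0.0003), 0.492 in the inbred strains (n = 25, rho 0.549, permutation p = 0.0126, adjusted 0.19) and 0.427 in AXB/BXA (n = 18, rho 0.468, permutation p = 0.0779, adjusted 0.292). In CXB it was 0.545 (n = 7, exact permutation p = 0.208, adjusted 0.931) and in BXH 0.864 (n = 6, exact permutation p = 0.0403, adjusted 0.255), which fell to 0.376 without BXH-19/TyJ and BXH-6/TyJ. For C3 the r was 0.487 in BXD (adjusted permutation p = 0.00735) and did not pass in the other panels, at 0.460 in AXB/BXA, 0.309 in the inbred strains, 0.808 in BXH (-0.377 without the same 2 strains) and 0.0286 in CXB. For Serpina3n no single panel passed, with r of 0.267 in BXD, 0.434 in AXB/BXA, 0.239 in the inbred strains, 0.783 in BXH and 0.660 in CXB. The call of Serpina3n over all strains was thus not met in any panel alone. For Serping1, BXD alone gave an r of 0.339 (adjusted permutation p = 0.0553) and a rho of 0.382 (0.0293), of which the rho passed, and the other panels had r of 0.230 in AXB/BXA, 0.274 in the inbred strains, 0.125 in BXH and 0.082 in CXB, none passing.

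**Figure D5:**
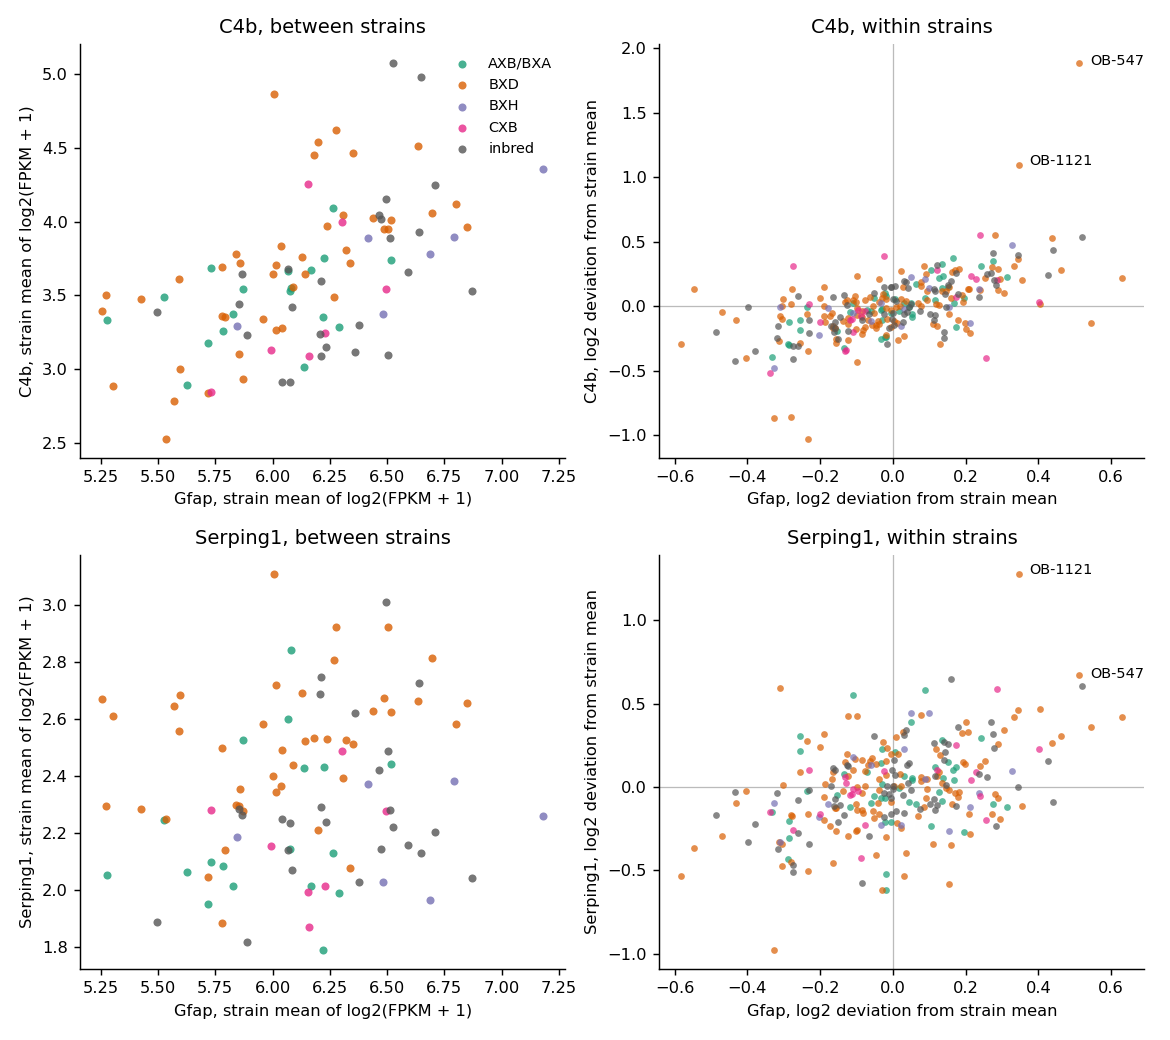
C4b (top) and Serping1 (bottom) against Gfap, with strain means of log2(FPKM + 1) on the left (1 point per strain) and log2 deviations of mice from their strain mean on the right (1 point per mouse of strains with at least 2 mice), coloured by panel. C4b rises with Gfap in both plots (r of 0.543 and 0.592), and Serping1 has an r of 0.148 on the left (0.339 in BXD alone) and of 0.426 on the right, with mice OB-547 and OB-1121 named.

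Among the 5 genes themselves, 4 of 10 pairs passed over strain means. The share of pairs that pass over all genes was not computed, so the count does not set these genes apart. Strains of a cross are related, and the permutations treat them as independent. C4b correlated with C3 (r = 0.367, rho = 0.417, adjusted permutation p = 0.0012 and 0.00015), with Serping1 (0.298, 0.299, 0.00885 and 0.00825) and with Serpina3n (0.235, 0.233, 0.0406 and 0.0434), and Serpina3n correlated with Serping1 (0.251, 0.259, 0.0323 and 0.0254). No pair with Cd59a passed, and its r with the other genes lay between -0.0938 and 0.167. Leaving out the 2 farthest strains moved these r values to 0.417, 0.227, 0.218 and 0.225 in that order.

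Cell markers moved with some of these genes, and correlations with them are given as a description over the same libraries, with no p. Summed log2 levels of the markers of each cell type were used. Serping1 followed the fibroblast and meninges markers, of which Dcn, Igf2 and Slc6a13 were measured of 7 listed, with an r of 0.775 over 99 strain means and 0.670 over deviations within strains (0.758 and 0.684 without OB-547). The summed level of these markers ran from 11.5 to 67.9 FPKM over mice, with none at 0 in all mice. Serping1 also had an r of 0.266 and 0.282 with the anterior pituitary markers, and their part in its differences was not tested. Gfap had an r of 0.402 with the fibroblast and meninges markers within strains and of 0.179 over strain means. With the fibroblast and meninges markers as a covariate, chosen after the values were seen, the slope of Serping1 on Gfap within strains was 0.24 ± 0.07 (limma adjusted p = 0.0123) in place of 0.54, and that of C4b was 0.81 ± 0.08 in place of 0.74. The slope of Cd59a within strains lost its call with this covariate (0.13 ± 0.06, limma adjusted p = 0.0672).

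C4b was higher in mice with lower neuron markers, with an r of -0.537 within strains, or -0.322 without OB-547, and with higher microglia markers, with 0.395 or 0.281 without OB-547 (9 of 10 microglia markers measured, summed level 68.4 to 467 FPKM, highest in OB-547). Gfap moved the same way within strains, with an r of -0.322 with neuron markers (-0.270 without OB-547) and 0.174 with microglia markers (0.125 without OB-547). The part of these markers in the slope of C4b on Gfap was not tested. Serpina3n was lower in mice with higher thalamus markers, with an r of -0.468 within strains, and with higher oligodendrocyte markers, with -0.363, or -0.482 and -0.425 without OB-547, and all 5 listed markers of both were measured. The thalamus markers summed to 17.4 to 381 FPKM. Their part in the differences of Serpina3n was not tested. With the summed level of the astrocyte genes Aqp4, Slc1a3 and Aldh1l1 as a covariate, the slopes on Gfap over strain means were 0.72 ± 0.11 for C4b and 0.41 ± 0.11 for C3 (limma adjusted p = 5.53e-05 and 0.0263), as large as without it. That of Serpina3n was 0.43 ± 0.12 and passed (0.0278).

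For each gene, the 5 genes most like it over the 99 strain means were named by Pearson r. Gfap was the most similar gene to C4b, and C4b the most similar to Gfap (r = 0.543). The next for C4b were the lysosomal cathepsins Ctss (0.520) and Ctsc (0.513), then Cdk20 (0.476) and Lgi4 (0.468). Within panels Ctss varied, with an r of 0.714 in the inbred strains and 0.560 in BXD but -0.0253 in AXB/BXA. For C3 the most similar were Sesn2 (0.568) and C2 (0.488), the complement protease next to C4 in the cascade. Both followed C3 in the inbred strains, which hold SJL/J and SWR/J, with r of 0.815 and 0.691, but not in BXD, with -0.140 and 0.234. Gfap came at rank 14 for C3.

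For Serping1 the list held Dcn (0.766) and Fmod (0.745), which encode matrix proteoglycans, an unnamed locus (0.740), the transporter Slc6a13 (0.708) and Crabp2 (0.689), and Gfap came at rank 2501. The r with Dcn was between 0.525 and 0.853 in every panel. For Serpina3n the closest were unnamed loci, led by r of 0.797 and 0.770, of which the second lies on the same chromosome at chr12:104189648-104190429, and Gfap came at rank 126. The r with the second was 0.863 in the inbred strains and 0.755 in BXD, and -0.0802 in AXB/BXA.

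For Cd59a, on chromosome 2, 4 of the 5 most similar loci lay on chromosome 13. They were the locus A530054K11Rik/AA987161 at chr13:67589442-67637791 (r = 0.549), an unnamed locus (0.522), Aaed1/Cdc14b (0.498) and Mtrr (0.470), which encodes methionine synthase reductase. The fifth was Rnf141 (0.461), on chromosome 7. In the window chr13:60000000-70000000, chosen after these values were seen, lay 7 of the 17 genes with a position among the 20 most similar, against 47 of all 12524 genes with a position. For the first locus the r was 0.870 in BXD and 0.956 in BXH, 0.481 in AXB/BXA, 0.197 in the inbred strains and -0.386 in CXB. For Mtrr it was 0.719 in BXD, 0.979 in BXH, 0.714 in AXB/BXA, 0.368 in CXB and 0.119 in the inbred strains. The similarity was thus strong in some crosses and weak among the inbred strains.

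The rest of the complement pathway was read from a list of 54 genes, of which 25 were measured alone at their locus, C4b, C3, Serping1 and Cd59a among them. Strains differed for 23 of the 25, against 75.4% of all genes, and the median strain share was 0.387 against 0.222 for all genes. The 2 that did not pass were Cd46 and Csmd3 (limma adjusted p = 0.173 and 0.0892). The highest shares outside the 5 genes were those of the C1q chains, which start the classical pathway, at 0.634, 0.682 and 0.715 for C1qa, C1qb and C1qc. Their mean levels were 22.6 ± 7.20, 16.3 ± 5.61 and 19.0 ± 6.48 FPKM (SD, n = 282).

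On Gfap over strain means, 3 of 25 complement genes had a positive slope called and 0 a negative one, against 0.838% and 0.384% of all genes, and the third beside C4b and C3 was Clu, the fluid-phase inhibitor clusterin (0.12 ± 0.03, limma adjusted p = 0.0215). The median slope of the list was 0.08 against 0.01 for all genes. Within strains, 12 had a positive slope called and 2 a negative one, against 14.2% and 13.2%, with a median of 0.13 against 0.01. Without OB-547 there were 10 positive ones, where 3.86% of all genes were positive. Over all genes, 613 negative slopes were called without OB-547, in place of 1853. The slopes named next are with all mice only, and which of them hold without OB-547 is not given. With all mice, the C1q genes were among the 12, at 0.26 ± 0.07, 0.24 ± 0.08 and 0.26 ± 0.07 (limma adjusted p = 0.00372, 0.011 and 0.00257), as were Vtn, another inhibitor of the terminal pathway, at 0.25 ± 0.05 (0.000533), and Clu, at 0.16 ± 0.03 (0.00043). The negative ones were Susd4, at -0.17 ± 0.05 (0.00812), and Csmd3, at -0.19 ± 0.06 (0.013), both membrane proteins with complement control domains.

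Of 29 acute phase genes, 3 were measured alone at their locus, Serpina3n, Cp and Itih3. All 3 differed between strains, where 75.4% of all genes did, with shares of 0.865, 0.255 and 0.597, and none had a slope on Gfap called in the limma fits, with 1 of 3 at an unadjusted p under 0.05 and a positive slope over strain means and 0 of 3 within strains. Of 16 reactive astrocyte genes 9 were measured, Gfap included, and all 9 differed between strains, against the same 75.4%. Among the other 8, C4b and Vim had positive slopes called both over strain means and within strains, where 0.838% and 14.2% of all genes did, with Vim, an intermediate filament like Gfap, at 0.25 ± 0.06 (limma adjusted p = 0.0159) and 0.57 ± 0.07 (2.49e-10). Hspb1, Cd44, Cp, Stat3 and Socs3 had slopes between 0.01 and 0.20 over strain means and between 0.01 and 0.12 within strains, none of them called. All slopes in this paragraph are with all mice.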

How the data were processed

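Unstranded mRNA libraries were made by the authors from the hypothalamus of each of 282 males fed a high fat, high sugar diet. Reads were aligned to mm10 with STAR 2.3.1, transcripts were assembled per strain with Cufflinks 2.2.0 and merged with known annotation, and each mouse was quantified with Cuffquant and Cuffnorm 2.2.1. The values deposited by the authors are FPKM scaled between mice, for genes and transcripts above 0 FPKM in at least 100 mice and above 1 FPKM in at least 50. FPKM hold no counts, so depth is unknown, no counting interval was computed, and Cufflinks divides reads among transcripts and copies by estimation. No value column was left out (0 unused).

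Mice were grouped by the strain in their labels, and OB-627, whose labels disagree, was left out of strain tests. Values were transformed as log2(FPKM + 1), with a pseudocount of 1 and no further filter. Strains, panels, parents and slopes on Gfap were tested with limma 3.58.1 in R 4.3.3, with Benjamini-Hochberg adjustment over all genes or transcripts and a threshold of 0.05. Correlations were permuted, with exact enumeration under 10 strains, with scipy 1.17.1, numpy 2.4.6 and pandas 2.3.3 (Python 3.11.15), and matplotlib 3.10.9 drew the plots. The tests were checked on simulated data with independent noise. These held no related strains and no outlying library, so the check does not cover either.

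The 5 genes, the gene lists and the markers were chosen with earlier results of these data known. Named genes were the 5 genes and Gfap, members of the lists, the 5 most similar genes of each, the 3 highest and 3 lowest strains of each and the parents. A few further strains and genes are named beside them where a result turned on them. Alternatives tried were a pseudocount of 0.1, a mean of at least 1 FPKM, quantile normalization, leaving out mice, other fits, covariates and the Kruskal-Wallis test. The fibroblast covariate, slopes per panel, and the removal of OB-1121 and of SJL/J and SWR/J were added after seeing the data. The transcription start site and coding sequence values of the table were not used here.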

Additional observations from a re-analysis of the deposited data

How the results depend on the processing

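No paired analysis was possible because replicate numbers only name mice and no label ties mice of different strains. FPKM without counts limit what can be said of low genes such as C3. The calls of all 5 genes between strains held under the pseudocount, level filter, quantile normalization, the Kruskal-Wallis test and removal of OB-547, and so did the slopes of C4b and C3 on Gfap under the first 3 and the last of these. OB-627 placed in either named strain changed no call. The cause of the changes below was not tested, except that leaving out replicates leaves fewer mice.

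With quantile normalization, 4 of the 5 genes passed in DBA/2J (C4b gained its call, 0.74, limma adjusted p = 0.0311), 1 in A/J (C3 lost its call) and 2 in BALB/cJ (Serpina3n gained its call and Serping1 turned to 0.0025), where 7.84%, 8.41% and 7.14% of all genes passed. Positive slopes were called for 71 genes over strain means and 144 within strains, 4 of them complement genes, and the slope of Cd59a within strains was 0.11 and not called. Without OB-547, 4159 genes passed in CXB, 2 of the 5 in BALB/cJ, and positive slopes for 196 genes over strain means (1 of them an acute phase gene, Serpina3n at 0.39) and 544 within strains, where Cd59a, at 0.14, was not called. With only both strains of a contrast in the fit, 1 of the 5 genes and 4.37% of all genes passed in C3H/HeJ, and 2 and 3.50% in BALB/cJ. With the astrocyte covariate Serpina3n passed over strain means (0.43), as did 341 genes with positive slopes, and with Dcn, Igf2 and Slc6a13 as covariate Cd59a lost its call within strains (0.13). As deviations within strains, r with Gfap was 0.1002 for Serpina3n (call lost, though its rho of 0.154 was called, and without OB-547 r was 0.186 and called), 0.426 for Serping1 and 0.240 for Cd59a (both called), and r of C3 with Serpina3n turned to -0.0587. These permutations treat deviations as independent, though those of a strain are tied by its mean, so their p values are too small. They were adjusted over the pairs alone. The limma slope of Serpina3n within strains, adjusted over all genes, was not called with or without OB-547. The r of Serping1 with Cd59a turned to -0.0034 without OB-547 and to -0.0073 without SJL/J and SWR/J. In BXD alone r of Serpina3n with Gfap was 0.267 and not called.

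Leaving out 1 replicate in turn gave the following ranges. Over all strains 6413 to 8639 genes, 12475 to 16853 transcripts and 5 to 9 reactive astrocyte genes passed. Within panels 1367 to 2061 genes passed in AXB/BXA (1 to 1 of the 5 genes), 4162 to 8551 in BXD, 898 to 1996 in BXH (1 to 2 of the 5), 1040 to 3199 in CXB and 3835 to 4648 in the inbred strains. Against C57BL/6J, 4.10% to 5.99% of all genes passed in DBA/2J (1 to 3 of the 5), 4.16% to 6.28% in A/J (0 to 1 of the 5), 4.11% to 6.04% in C3H/HeJ and 3.49% to 6.45% in BALB/cJ. In A/J the 0 of 5 arose without the first mouse of every strain, without the third, and without OB-605 of C57BL/6J alone. Log2 differences that changed sign ran from -0.34 to 0.045 (C3 in DBA/2J), -0.10 to 0.058 and -0.40 to 0.026 (C4b and Serping1 in A/J), -0.063 to 0.45 and -0.36 to 0.55 (C4b and Serping1 in C3H/HeJ), and -0.054 to 0.23 and -0.21 to 0.20 (C4b and Serping1 in BALB/cJ), none of them called with all mice. Positive slopes on Gfap were called for 33 to 89 genes over strain means and 80 to 747 within strains, 3 to 8 of them complement genes, and the slope within strains ran from 0.10 to 0.28 for Cd59a and from -0.041 to 0.17 for Serpina3n.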

Other observations

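Mouse OB-627, whose labels name more than 1 strain, had 12.3 FPKM of C4b, 0.674 FPKM of C3, 21.8 FPKM of Serpina3n, 3.95 FPKM of Serping1, 12.4 FPKM of Cd59a and 64.3 FPKM of Gfap. Each lay within the range of the other mice.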
